A study of Homo sapiens with 6 samples.

Results

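The genes described here are 10 secreted ligands and antagonists of the activin, BMP and TGF-β pathways. INHBA and INHBB encode the chains of activin A and activin B, and FST and FSTL3 encode follistatin and follistatin-like 3, which bind activins. BMP2 and BMP4 are bone morphogenetic proteins, NOG and GREM1 encode the BMP antagonists noggin and gremlin 1, and TGFB1 and TGFB2 are TGF-β ligands. They were chosen by name from this pathway when the untreated and DAC values of these tables were already known, so their values are a description and no test is given. All 10 were found among the 23617 gene symbols of the MDA-MB-231 table, with 16 transcripts. The HMLER table of 1854 symbols held 7 of them, with 8 transcripts, and 7.85% of the 23617 symbols.

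Ligands of this family bind pairs of receptor serine/threonine kinases, which phosphorylate SMAD transcription factors. Activins and TGF-β act mainly through SMAD2 and SMAD3, and BMPs through SMAD1, SMAD5 and SMAD9. Antagonists act outside the cell by binding the ligand, and several of them are themselves induced by the pathway they block. In breast epithelium, TGF-β restrains growth and in carcinoma cells it is known for promoting mesenchymal and invasive behaviour, while activin is generally growth-inhibitory.

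MDA-MB-231 is a human breast cancer cell line of mesenchymal character and HMLER cells are human mammary epithelial cells that were immortalised and transformed with introduced genes, RAS among them. Cells were left untreated or received 10 µM decitabine (5-aza-2′-deoxycytidine, DAC), a cytidine analog that blocks DNA methyltransferases, each day and were collected at 72 h. There was 1 untreated and 1 DAC library of MDA-MB-231, and 2 untreated and 2 DAC libraries of HMLER, each from a pool of RNA extractions. Untreated cells are labelled with no treatment, and no vehicle is named. One label of the untreated MDA-MB-231 library gives another line number, whereas its title gives MDA-MB-231, which was used. Values are FPKM, the number of fragments scaled by transcript length and by mapped fragments, and the transcripts of a symbol were summed. The bounds quoted are those that Cuffdiff gave each transcript from 1 library, so no difference in MDA-MB-231 has a replicate check. For HMLER, the libraries of a condition share 1 merged value, and the table lists only transcripts that were more than 2-fold higher after DAC (lowest ratio 2.001), the lowest DAC value being 1.003 FPKM. Being listed there is thus what selected a gene, and no HMLER value is known here for the others. As RNA came from whole cultures, a lower level cannot be told apart from fewer cells that express the gene.

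In the MDA-MB-231 libraries, what 1 fragment is worth in FPKM was fitted on low values, 712 of the untreated and 736 of the DAC library. With the fitted worth, 100% of each lay within 0.1 of a whole number. For a worth fixed beforehand, 20% would by chance, but the same values served for the fit, so the 20% is not a fair comparison. The depths that the fitted worth implies were 42.6 and 42.3 M fragments (M, 1000000). VIM, the mesenchymal filament vimentin, stood at 3066 FPKM in untreated MDA-MB-231 cells, and ESR1, PGR and CDH1 were listed at 0, as is known for this line. After DAC, VIM was at 1134 FPKM, CDH1 at 0.179 FPKM, PGR at 0.0555 FPKM and ESR1 at 0.0193 FPKM. Of 4 markers of other cells (COL1A1, PDGFRB, PECAM1 and PTPRC), none reached 1 FPKM without DAC and 2 did with it, and their summed level went from 1.11 to 17.3 FPKM. The median DAC/untreated ratio of all symbols at 1 FPKM or more in both libraries was 0.912.

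The stretches before the start sites of 5 of these genes are shown because DAC blocks the methylation of CG dinucleotides, which are in capitals. FST, FSTL3, GREM1 and BMP4 are the members that were higher after DAC in both lines, and INHBA is the one with the fewest CG of the members with a window. Each run holds the 250 bases before the start of a RefSeq transcript, on the strand of the gene, 5′ to 3′, and was placed on GRCh37 (the same assembly as hg19) by exact match. For GREM1 and BMP4, which have several windows, the most upstream one is shown. The promoter table of RefSeq (build GRCh38.p14) held 8 of the 10 members. BMP2 and NOG had no entry.

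FST (chr5:52776209-52776458, plus strand): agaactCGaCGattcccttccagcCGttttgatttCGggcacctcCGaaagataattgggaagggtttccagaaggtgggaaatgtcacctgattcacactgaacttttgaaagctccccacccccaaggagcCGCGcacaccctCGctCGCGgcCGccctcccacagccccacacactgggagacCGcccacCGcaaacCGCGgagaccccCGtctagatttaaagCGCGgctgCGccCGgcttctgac

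FSTL3 (chr19:676142-676391, plus strand): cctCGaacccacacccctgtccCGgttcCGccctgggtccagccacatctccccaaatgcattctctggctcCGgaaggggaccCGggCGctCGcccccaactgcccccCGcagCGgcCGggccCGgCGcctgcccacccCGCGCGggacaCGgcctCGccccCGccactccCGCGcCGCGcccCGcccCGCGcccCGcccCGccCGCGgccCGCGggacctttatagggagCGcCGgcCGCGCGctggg

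GREM1 (chr15:33009955-33010204, plus strand): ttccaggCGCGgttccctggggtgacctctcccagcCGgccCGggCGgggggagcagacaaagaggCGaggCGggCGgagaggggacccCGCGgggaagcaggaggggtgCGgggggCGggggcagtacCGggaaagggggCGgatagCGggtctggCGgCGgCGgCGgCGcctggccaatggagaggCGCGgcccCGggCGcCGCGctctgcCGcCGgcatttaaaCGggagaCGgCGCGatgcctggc

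BMP4 (chr14:54421769-54422018, minus strand): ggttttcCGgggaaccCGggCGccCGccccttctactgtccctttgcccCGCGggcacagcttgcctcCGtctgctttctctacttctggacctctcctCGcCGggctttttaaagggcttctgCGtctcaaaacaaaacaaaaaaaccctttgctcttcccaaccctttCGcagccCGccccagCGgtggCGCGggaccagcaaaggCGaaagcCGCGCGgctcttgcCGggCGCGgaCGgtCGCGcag

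INHBA (chr7:41742689-41742938, minus strand): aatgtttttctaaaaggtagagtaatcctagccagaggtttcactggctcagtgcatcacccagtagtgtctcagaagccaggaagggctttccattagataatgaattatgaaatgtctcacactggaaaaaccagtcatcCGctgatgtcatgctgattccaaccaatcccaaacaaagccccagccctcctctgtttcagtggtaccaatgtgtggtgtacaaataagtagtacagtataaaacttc

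The first 4 of these runs are dense in CG and the last is nearly free of it. Over windows of 300 bases (250 before and 50 after the start), the number of CG was 32 in FST, 44 in FSTL3, 42 in GREM1 and 32 in BMP4, against 1 in INHBA. The CpG observed/expected ratio, which corrects for base content, was 1.07 in FST, 1.005 in FSTL3, 0.985 in GREM1, 0.997 in BMP4 and 0.0716 in INHBA. The median of all 35116 windows in the table was 0.579, with 14 CG. INHBB had the most CG of the members, 58 in 300 bases, more than 99.8% of all windows. TGFB1 and TGFB2 had ratios of 0.648 and 0.710. In all, 10 of the 11 windows of the 8 members reached 0.6, as did 48.9% of all windows. BMP4 gave 3 of the 11 and GREM1 2, so the windows are not separate genes. The windows of INHBA and BMP4 lie inside the extents that GENCODE annotates for these genes, and starts further upstream were not examined.

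**Figure D1:**
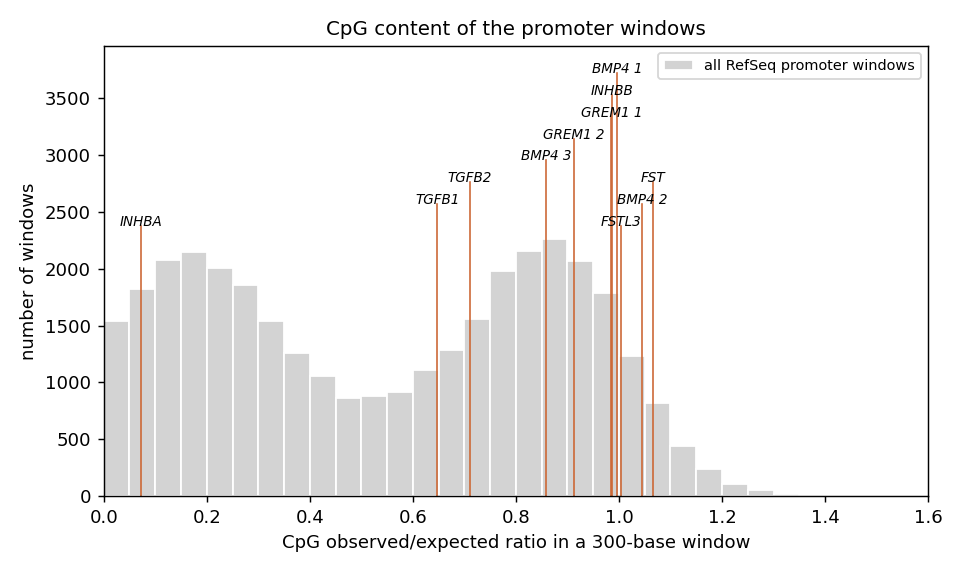
Distribution of the CpG observed/expected ratio (horizontal axis, no unit) over all 35116 RefSeq promoter windows of 300 bases (grey bars, number of windows per bin), with orange lines at the 11 windows of the 8 members and a number after the symbol where a gene has several. All member windows lie at 0.648 or above except that of INHBA, at 0.0716.

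Some short motifs were searched on both strands of these windows. TATAAA was found in INHBA, FSTL3 and TGFB2 and in 11.5% of all windows. TGANTCA, the AP-1 motif, was found in FST and in 7.71% of all windows. GGCGCC, a GC-rich SMAD motif, was found in INHBB, FSTL3 and in the most upstream windows of BMP4 and GREM1, and in 19.2% of all windows. It overlaps CG by construction. TGACGTCA, the cyclic AMP response element, and GTCTAGAC, the palindromic SMAD element, were in no member window, and in 1.85% and 0.202% of all windows.

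In MDA-MB-231, 5 of the 10 members (FST, GREM1, BMP4, FSTL3 and INHBB) were more than 2-fold higher after DAC and NOG was more than 2-fold lower. Of all 12525 symbols at 1 FPKM or more in at least 1 library, 10.8% were higher and 4.82% lower by the same rule, that is 1350 and 604 symbols. With both libraries rescaled to the same total FPKM, these were 2421 and 350. TGFB1 and TGFB2 stayed within 2-fold, and INHBA and BMP2 were under 1 FPKM in both libraries. INHBB and GREM1 passed the 1 FPKM limit through the DAC library alone, so they had to be higher there. The ratio of INHBB, 2.11, was just inside the 2-fold limit, and that of TGFB1, 1.37, was the nearest outside it among members at 1 FPKM or more. The bounds of the largest transcript did not overlap between the libraries for FST, GREM1 and NOG. They overlapped for FSTL3, INHBB and BMP4. Of the 12525 symbols, 0.942% were past 2-fold upwards with bounds apart, and 0.279% downwards. The direction of the 6 members past 2-fold held when ratios were divided by the median ratio of all symbols. It also held when libraries were rescaled to the same total. Both steps raise every DAC/untreated ratio, so NOG was the only one of the 6 that could have changed direction.

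**Figure D2:**
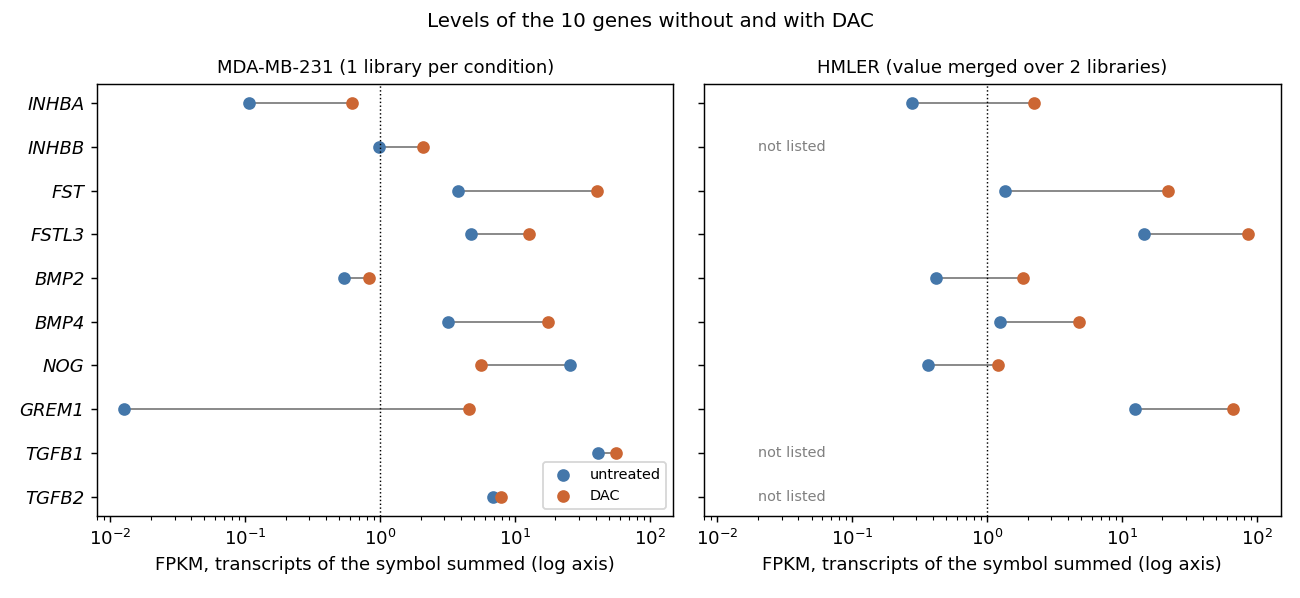
FPKM of the 10 genes (horizontal log axis, transcripts summed) in untreated (blue) and DAC-treated (orange) cells, for MDA-MB-231 at the left and HMLER at the right, with a dotted line at 1 FPKM. NOG is the one gene whose orange point lies at the left of the blue one, in MDA-MB-231, and the HMLER table lists no value for INHBB, TGFB1 and TGFB2.

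Of the activin ligands, INHBA (hg19, chromosome 7, 41706766 to 41745432, minus strand) was at 0.107 FPKM in MDA-MB-231 without DAC and 0.623 FPKM with it. These values stand for about 9 and 52 fragments, and the ratio of 5.81 had an exact 95% interval of 2.84 to 13.4, which covers counting error only. The Cuffdiff bounds, 0 to 0.326 and 0 to 1.82, overlapped. In HMLER it was at 0.278 FPKM without and 2.24 FPKM with DAC, a ratio of 8.07. INHBA lay low in both lines and had a higher value with DAC in each table. Its promoter window is the one with hardly any CG. Methylation of the member windows was not analysed here, and a link between CG content and the change after DAC was not tested. INHBA-AS1, an antisense RNA with exons that overlap INHBA, was at 0.0142 FPKM in the untreated and 0.0143 FPKM in the DAC library. Whether the counting used strand is not given in the sources used here, so reads of the pair cannot be told apart.

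INHBB (chromosome 2, 121103712 to 121109379, plus strand) was at 0.986 FPKM (bounds 0 to 2.30) in MDA-MB-231 without DAC and 2.08 FPKM (bounds 0.0586 to 4.10) with it. About 126 and 264 fragments stood behind these values, and the counting interval of the ratio was 1.70 to 2.63. It was not listed in HMLER. With 1 FPKM added to each value, INHBB was no longer past 2-fold (log2 change 0.63).

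FST (chromosome 5, 52776456 to 52782964, plus strand), which encodes the main extracellular binder of activin, was at 3.81 FPKM in MDA-MB-231 without DAC and 40.9 FPKM with it. The ratio was 10.7, with a counting interval of 9.47 to 12.2 from about 268 and 2867 fragments. Among the 12525 symbols, its level went from the 24.8th to the 80.6th percentile. Both FST transcripts were higher. NM_013409, which encodes the longer, circulating form, was at 3.52 and 37.2 FPKM and made up 92.5% of FST without and 90.9% with DAC. NM_006350, which encodes the shorter form that is retained at the cell surface, was at 0.286 FPKM (bounds 0 to 1.19) and 3.73 FPKM (bounds 0 to 9.51). The proportions of the FST transcripts thus differed little while the total differed by an order of magnitude. In HMLER, only NM_013409 was listed, at 1.36 FPKM without and 21.9 FPKM with DAC. Its ratio of 16.1 was the largest among the 7 listed members and ranked 245th of the 1854 symbols of that table.

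FSTL3 (chromosome 19, 676392 to 683392, plus strand), a relative of follistatin that also binds activin and myostatin, was at 4.74 FPKM (bounds 1.18 to 8.30) in MDA-MB-231 without DAC and 12.8 FPKM (bounds 5.93 to 19.7) with it. Its ratio of 2.70 had a counting interval of 2.43 to 3.01. In HMLER it was at 14.6 FPKM without and 85.8 FPKM with DAC, a ratio of 5.86. With DAC it had the highest FPKM of the members listed in HMLER. The activin antagonists were thus both higher after DAC in both lines, with FST having the larger ratio in each.

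BMP2 (chromosome 20, 6748333 to 6760893, plus strand) was under 1 FPKM in MDA-MB-231, at 0.541 FPKM (bounds 0 to 1.64) without and 0.825 FPKM (bounds 0 to 1.90) with DAC. The ratio of 1.52 came from about 68 and 103 fragments and had a counting interval of 1.11 to 2.10. In HMLER, BMP2 was at 0.416 and 1.84 FPKM, a ratio of 4.42.

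BMP4 (chromosome 14, 54416454 to 54425479, minus strand) was at 3.19 FPKM in MDA-MB-231 without DAC and 17.7 FPKM with it, a ratio of 5.55 with a counting interval of 4.82 to 6.42. An unnamed gene, ENSG00000287156, is annotated antisense to it and was not analysed here. All 3 of its transcripts were more than 2-fold higher, and the bounds overlapped for each. The main one, NM_001202, was at 2.45 FPKM (bounds 0 to 5.17) and 12.7 FPKM (bounds 4.76 to 20.7). It made up 76.9% of BMP4 without and 72.0% with DAC, and NM_130850 made up 15.9% and 22.6%. In HMLER, NM_001202 was listed at 1.26 and 4.79 FPKM, a ratio of 3.82. Of the BMP ligands, BMP4 was thus past 2-fold in both lines, and BMP2 in HMLER.

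NOG (chromosome 17, 54671060 to 54672972, plus strand), whose product holds BMPs away from their receptors, was the member with opposite directions in the lines. It was at 25.8 FPKM (bounds 13.1 to 38.4) in MDA-MB-231 without DAC and 5.64 FPKM (bounds 1.17 to 10.1) with it. The DAC/untreated ratio was 0.219, that is a 4.57-fold lower level, with a counting interval of the ratio from 0.196 to 0.244 and bounds that did not overlap. About 1854 fragments stood behind the untreated and 403 behind the DAC value. In HMLER, NOG was at 0.365 and 1.20 FPKM, a ratio of 3.29 that ranked 1019th of 1854. Its DAC value was near the lowest listed, 1.003 FPKM. With 1 FPKM added to each HMLER value, it was not past 2-fold (log2 change 0.69). Of the 1362 HMLER-listed symbols at 1 FPKM or more in MDA-MB-231, 31 (2.28%) were more than 2-fold lower there, and NOG had the lowest log2 change of all 1362.

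GREM1 (chromosome 15, 33010205 to 33037307, plus strand), a BMP antagonist made by stromal fibroblasts in many carcinomas, was almost absent from untreated MDA-MB-231 cells, at 0.0126 FPKM or about 2 fragments (exact 95% Poisson interval 0.242 to 7.22). With DAC it was at 4.54 FPKM, about 755 fragments. The ratio of 361 rests on those 2 fragments, and its counting interval was 99.4 to 2979. With DAC, 97.8% of GREM1 came from NM_013372, at 4.44 FPKM (bounds 1.61 to 7.28), which without DAC had an upper bound of 0.0120 FPKM. The fibroblast genes COL1A1 and PDGFRB were also higher with DAC in MDA-MB-231, from 0.853 to 15.6 FPKM and from 0.217 to 1.44 FPKM. Both passed the 1 FPKM limit through the DAC library alone. The endothelial marker PECAM1 was at 0.0110 and 0.156 FPKM and the blood cell marker PTPRC at 0.0247 and 0.119 FPKM. Of all symbols under 1 FPKM in both libraries with any value, 81.3% were likewise higher with DAC. What part cells with these markers have in the GREM1 value was not tested. In HMLER, GREM1 was already expressed without DAC, at 12.4 FPKM over its 2 listed transcripts, and was at 66.7 FPKM with DAC, a ratio of 5.37. NM_013372 made up 88.8% of that sum without and 84.7% with DAC. COL1A1 and PDGFRB were not listed in HMLER. GREM1-AS1, annotated antisense to GREM1, was not analysed here.

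**Figure D3:**
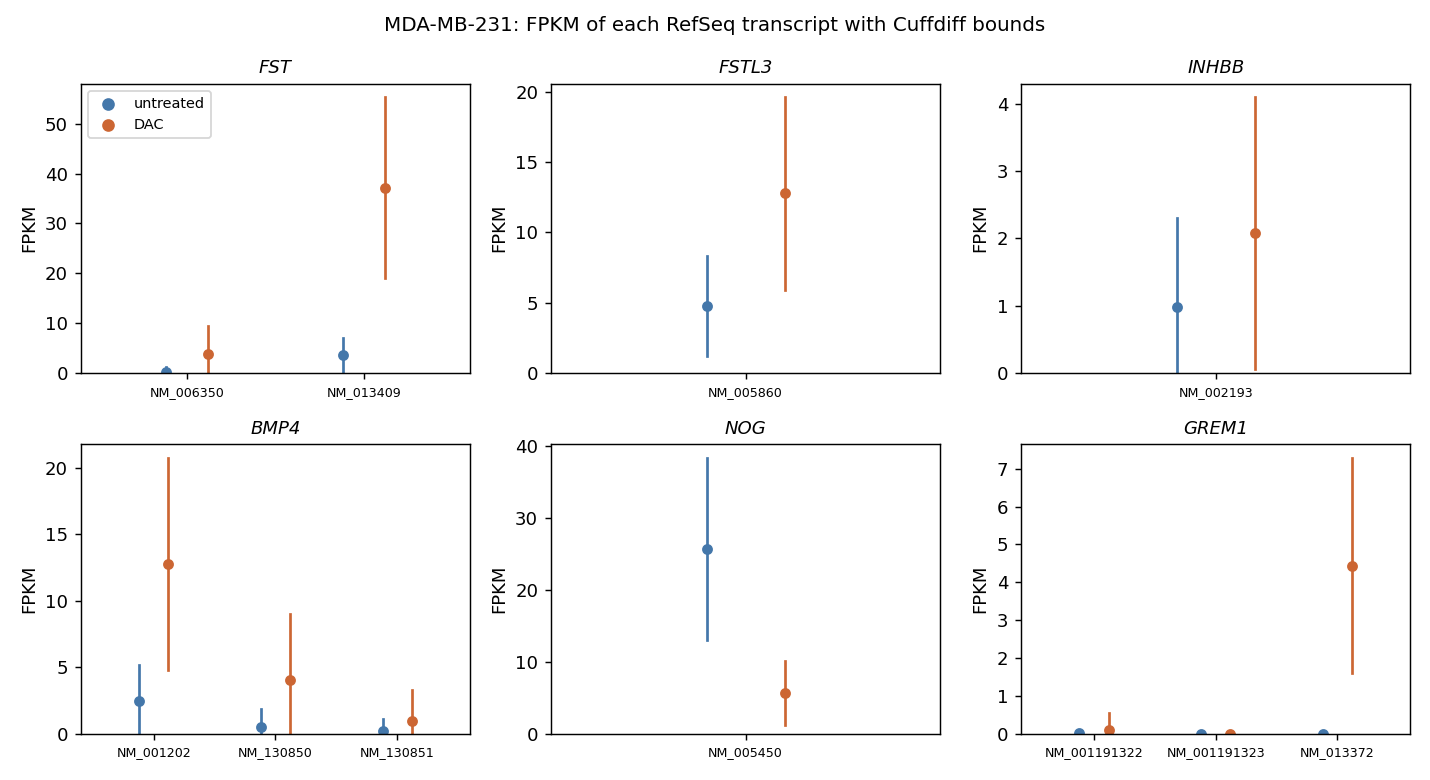
FPKM (vertical axes from 0, each panel with its own scale) of every RefSeq transcript of the 6 genes past 2-fold in MDA-MB-231, in the untreated (blue) and the DAC library (orange), with vertical lines from the lower to the upper Cuffdiff bound. The lines are apart for NM_013409 of FST, NM_013372 of GREM1 and for NOG, and overlap for all others.

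TGFB1 (chromosome 19, 41807492 to 41859827, minus strand) was the most abundant member in MDA-MB-231 in both conditions, at 41.2 FPKM (bounds 22.5 to 59.9) without and 56.5 FPKM (bounds 31.0 to 81.9) with DAC, a ratio of 1.37. TGFB2 (chromosome 1, 218518678 to 218617961, plus strand) was at 6.88 FPKM without and 7.83 FPKM with DAC, a ratio of 1.14. The TGFB2 transcript NM_003238 gave 100% of the untreated and 96.7% of the DAC value. Neither gene was listed in HMLER. The TGF-β ligands thus stayed within 2-fold in MDA-MB-231, as did 10571 of the 12525 symbols at 1 FPKM or more. HNRNPUL1, which GENCODE annotates on the strand opposite TGFB1 with overlapping exons, was itself at 225.1 and 214.6 FPKM. As for INHBA, reads of this pair cannot be told apart where the exons overlap, so part of the TGFB1 value may belong to HNRNPUL1. TGFB2-AS1 and TGFB2-OT1, which overlap TGFB2 on the opposite and the same strand, were not analysed here.

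The order of the levels in MDA-MB-231 differed between the libraries. Without DAC it ran TGFB1, NOG, TGFB2, FSTL3, FST, BMP4, INHBB, BMP2, INHBA and GREM1. With DAC it ran TGFB1, FST, BMP4, FSTL3, TGFB2, NOG, GREM1, INHBB, BMP2 and INHBA. FST thus moved from place 5 to place 2 and NOG from place 2 to place 6. By the bounds of the largest transcript, neighbours in the order overlapped in 8 of 9 cases without DAC, all but NOG against TGFB2, and in 9 of 9 with DAC. In untreated HMLER cells, FSTL3 and GREM1 were the highest of the listed members, at 14.6 and 12.4 FPKM, and INHBA the lowest. The tables were normalised separately, so levels are set side by side between the lines without a comparison.

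Of the 10 members, 4 were higher after DAC in both lines: FST, FSTL3, GREM1 and BMP4. By the same rules, 10.9% of the 12525 symbols at 1 FPKM or more in MDA-MB-231 were listed in HMLER, and 3.66% were higher in both. All 4 antagonists and 3 of the 6 ligands (INHBA, BMP2 and BMP4) were listed in HMLER, beside 7.85% of all 23617 symbols. INHBA and BMP2 were under 1 FPKM in MDA-MB-231 and lie outside the 12525. In MDA-MB-231, 3 of the 4 antagonists and 2 of the 6 ligands (BMP4 and INHBB) were higher. When bounds of the largest transcript were also required not to overlap in MDA-MB-231, FST and GREM1 remained of the 4. With that requirement, 0.942% of the 12525 symbols were higher in MDA-MB-231. The MDA-MB-231 libraries are not replicates, and the members were picked with these values known, so these counts say nothing of the pathway as a whole.

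**Figure D4:**
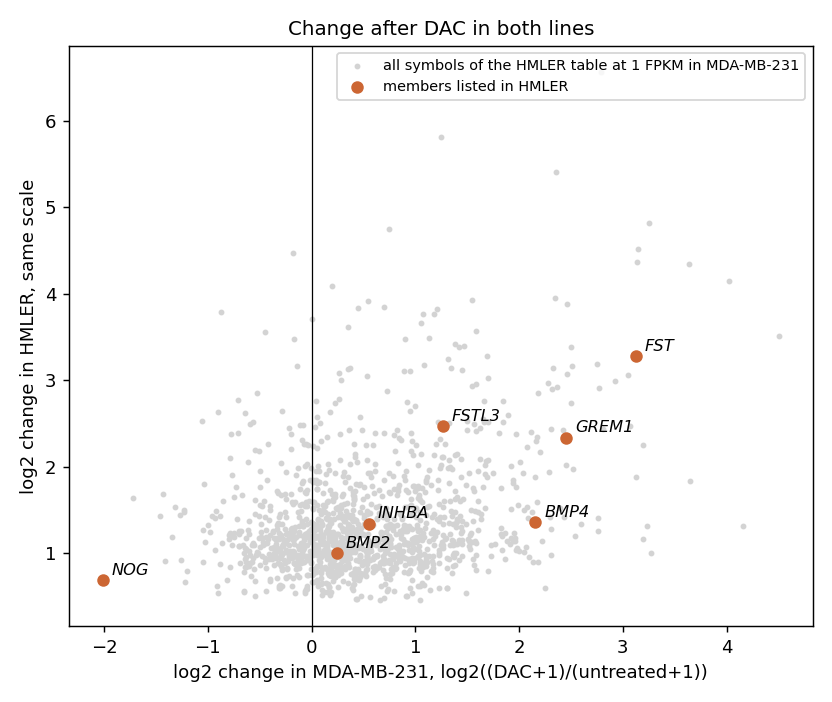
Log2 change after DAC in MDA-MB-231 (horizontal) and in HMLER (vertical), each with 1 FPKM added to both values, for the 1362 HMLER-listed symbols at 1 FPKM or more in MDA-MB-231 (grey) and the 7 listed members (orange), of which INHBA and BMP2 are under 1 FPKM in MDA-MB-231. FST lies at 3.12 and 3.28, and NOG at -2.01 and 0.69.

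Antagonist and ligand levels were summed per arm, a step chosen after the values were seen. In MDA-MB-231, FST and FSTL3 together stood at 8.55 FPKM without and 53.7 FPKM with DAC, and INHBA and INHBB at 1.09 and 2.70 FPKM. Antagonist over ligand was thus 7.82 without and 19.9 with DAC. In HMLER, FST and FSTL3 stood at 16.0 and 107.6 FPKM against 0.278 and 2.24 FPKM of INHBA, the listed ligand, so the quotients were 57.6 and 48.0. INHBB, whose HMLER level is unknown, is missing from these, while it gave 0.986 of the 1.09 FPKM in untreated MDA-MB-231. The activin quotients of the lines are thus not the same measure. For the BMP arm, NOG and GREM1 stood at 25.8 and 10.2 FPKM in MDA-MB-231, and BMP2 and BMP4 at 3.73 and 18.5 FPKM. Antagonist over ligand was 6.91 without and 0.550 with DAC. NOG and GREM1 together thus exceeded BMP2 and BMP4 without DAC and not with it. In HMLER, the quotient of these genes over their listed transcripts alone was 7.65 without and 10.2 with DAC. The difference between the lines in this quotient has no replicate behind it and was not tested. Both arms leave out the other ligands and antagonists of the pathway, so the quotients give no balance of the whole. Of the other antagonists and latency proteins, CRIM1 was at 207.8 and 123.5 FPKM in MDA-MB-231 and TWSG1 at 30.5 and 20.3 FPKM. Each, chosen after its values were seen, exceeded the BMP2 and BMP4 sum in both libraries.

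The genes whose 4 condition values were most like those of the 4 members higher in both lines were found by Euclidean distance on the log2(FPKM + 1) scale over 1853 symbols with values in both tables. For FST these were SOX15 (distance 0.405), HIST1H2BC and GCH1. For FSTL3 they were PLAT (0.796), PHLDA3 and DDIT3. For BMP4 they were NANOS1 (0.581), MAPK11 and ROPN1L. For GREM1 they were PGF (1.16), PTGES and RHOD. SOX15 was at 3.77 and 31.0 FPKM in MDA-MB-231 and at 1.55 and 22.3 FPKM in HMLER, each without and with DAC. A distance over 4 values, 2 from each table, describes these tables only.

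The rest of the pathway was described by 5 lists of 84 genes in all, of which 45 passed the 1 FPKM limit in MDA-MB-231. Of these 45, 7 were more than 2-fold higher and 5 lower, beside 10.8% and 4.82% of all tested symbols, and the median log2 change with 1 FPKM added was -0.01. Over all 12525 symbols the median was -0.08. Over the 8 members at 1 FPKM or more it was 0.95, a value partly fixed by their choice, since they were picked with these values known and INHBB and GREM1 passed through the DAC library alone. Of the 7, SMAD6, ID2, GDF15 and BMPER passed the 1 FPKM limit through the DAC library alone, so these 4 had to be higher there. In HMLER, 12 of the 84 were listed, as were 7.85% of all 23617 symbols.

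Of 15 receptors and co-receptors, 11 reached 1 FPKM, none was more than 2-fold higher, and TGFBR2 and TGFBR3 were lower. TGFBR2, the type II receptor for TGF-β, was at 87.5 FPKM without and 36.7 FPKM with DAC. TGFBR3, the co-receptor betaglycan, was at 7.11 and 3.06 FPKM. Their ratios, 0.419 and 0.431, were 0.514 and 0.528 with libraries rescaled to the same total, and thus no longer past 2-fold. The median log2 change of the 11 was -0.36. BAMBI, a pseudoreceptor that dampens signalling, was listed in HMLER at 0.124 and 2.91 FPKM and was at 2.95 and 4.32 FPKM in MDA-MB-231.

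All 8 SMADs reached 1 FPKM and their median log2 change was -0.15. SMAD6, an inhibitory SMAD of the BMP arm, was more than 2-fold higher in MDA-MB-231, at 0.451 and 2.03 FPKM. SMAD7, the other inhibitory SMAD, was at 2.32 and 2.67 FPKM there and was listed in HMLER at 1.77 and 4.89 FPKM. SMAD3 was listed in HMLER at 2.92 and 6.58 FPKM and was at 24.9 and 19.4 FPKM in MDA-MB-231.

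Of 15 SMAD target genes, 12 reached 1 FPKM, 3 were more than 2-fold higher and 2 lower, and the median log2 change was 0.36. ID1, a target of BMP signalling, was among the lower ones, at 138.4 and 47.7 FPKM. ID2, a relative of ID1, was higher in both lines, at 0.586 and 5.52 FPKM in MDA-MB-231 and 5.41 and 23.4 FPKM in HMLER. So was the cell-cycle inhibitor CDKN1A, at 11.1 and 37.1 FPKM and at 82.6 and 475.6 FPKM. JUNB, an AP-1 subunit, was at 8.95 and 35.3 FPKM in MDA-MB-231. SKIL, TGIF1, SNAI2 and PMEPA1 were listed in HMLER with ratios of 3.25, 2.65, 2.09 and 3.91. In MDA-MB-231, PMEPA1 was under 1 FPKM and the ratios of the other 3 were 1.95, 1.52 and 1.14. Targets thus differed in direction within the list, and genes on it answer to other signals too.

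Of 28 genes listed as other ligands of the family, 6 reached 1 FPKM, with a median log2 change of 0.48. These 6 include BMP1, at 1.76 and 3.19 FPKM, which is named with the BMPs but encodes a protease and not a ligand. GDF15, a stress-induced member of the family, was the one of the 6 past 2-fold, at 0.330 and 1.30 FPKM in MDA-MB-231. It was listed in HMLER at 52.7 and 276.7 FPKM. GDF6 and BMP8A were also listed in HMLER, at 0.196 and 1.35 FPKM and at 0.297 and 1.10 FPKM, and were under 1 FPKM in MDA-MB-231. Of 18 other antagonists and latency proteins, 8 reached 1 FPKM, with a median log2 change of -0.11, and none was listed in HMLER. LTBP3, which holds latent TGF-β in the matrix, was at 1.57 and 10.5 FPKM, and BMPER, a BMP-binding protein, at 0.399 and 1.44 FPKM. LTBP1 was at 2.40 and 1.05 FPKM, a ratio of 0.438 that was 0.537 with libraries rescaled to the same total. Bounds of the largest transcript overlapped for all list genes named here as past 2-fold other than JUNB and CDKN1A.

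**Figure D5:**
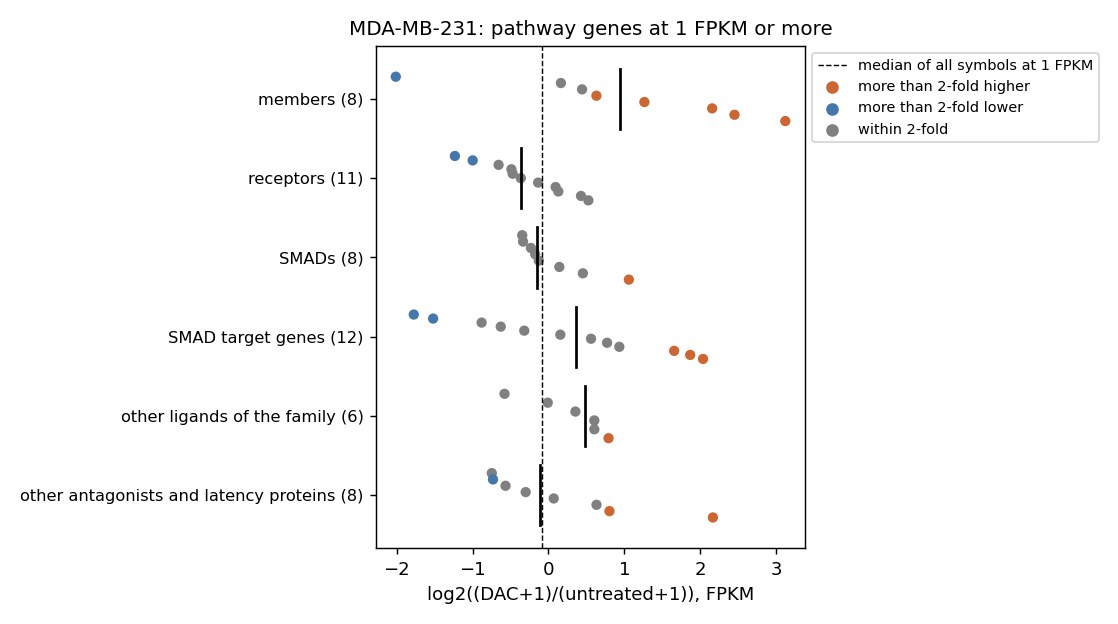
Log2 change after DAC in MDA-MB-231 with 1 FPKM added (horizontal axis) of each gene at 1 FPKM or more, by list with the number of genes in parentheses, coloured by whether it was more than 2-fold higher (orange), lower (blue) or neither (grey). Black bars are the medians of the lists, from -0.36 for receptors to 0.95 for the members, and the dashed line is the median of all symbols, -0.08.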

How the data were processed

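RNA was sequenced from the 6 libraries described above. The authors aligned reads to hg19 with TopHat2 and deposited FPKM values per RefSeq transcript from Cuffdiff, run on the Galaxy server. Versions and library scaling are not given in the sources used here. The fold changes, p-values and q-values of the authors' own comparisons, also in these tables, were not used. The members and gene lists were chosen with earlier results of these data known.

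FPKM values of all transcripts of a symbol were summed. A gene was counted as higher or lower past 2-fold when at least 1 of its values reached 1 FPKM. Ratios had no pseudocount, and log2 changes had 1 FPKM added, which understates the change of low genes. No test was made, as MDA-MB-231 has 1 library per condition and HMLER 1 merged value. No column of per-sample values was left unmapped.

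What 1 fragment is worth was fitted on transcripts over 2000 bases with no other transcript of the same symbol or locus, and the fit took 200 bases off the length to give the effective length. Fragments behind a member are estimates. Intervals are exact Poisson or Clopper-Pearson, at 95%, and cover counting error only. The 2-fold rule, on genes at 5 FPKM or more, and the fit of what 1 fragment is worth were tested on simulated data. The intervals were not. Gene positions are from GENCODE v44 lifted to GRCh37.

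Genes named are the members, genes of the lists higher in both lines or listed in HMLER, up to 5 per list past 2-fold in MDA-MB-231, and the 3 nearest symbols of each member higher in both lines. A list gene that this rule names is not reported here. Alternatives changed the filter, pseudocount, transcript choice, scaling, status and bounds. The software was matplotlib 3.10.9, scipy 1.17.1, numpy 2.4.6 and pandas 2.3.3 under Python 3.11.15.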

Additional observations from a re-analysis of the deposited data

Results flagged for a closer look

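NOG and SMAD3 moved in opposite directions in the lines. The DAC/untreated FPKM ratio of NOG was 0.219 in MDA-MB-231 and 3.29 in HMLER, and that of SMAD3 was 0.779 and 2.25. Neither difference was tested, as each line has 1 value per condition. The HMLER direction was fixed by listing, since only transcripts higher after DAC are listed there. Of the 1362 listed symbols at 1 FPKM or more in MDA-MB-231, 2.28% were, like NOG, more than 2-fold lower in that line. The SMAD3 ratio in MDA-MB-231 was within 2-fold, and with libraries rescaled to the same total it was 0.955.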

How the results depend on the processing

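No paired analysis was possible because each condition has a single merged value in HMLER and a single library in MDA-MB-231. No replicate was left out, for that reason. Removing the filter was not run for HMLER, whose table is already filtered. All 81 member ratios under alternatives kept their direction, and 60 of the 63 that were past 2-fold stayed so. The other 3 (INHBA and INHBB in MDA-MB-231, NOG in HMLER) fell within 2-fold with a pseudocount of 1. Most of the kept directions were fixed beforehand. A pseudocount cannot reverse a ratio, and the transcript choice changes nothing for a gene with 1 transcript. Both scalings raise every MDA-MB-231 ratio, and HMLER genes were listed for being higher. Members higher in MDA-MB-231 (5) were 3 with 1 FPKM in both, 3 with 5 FPKM in either, and 2 where bounds must not overlap. Members higher in HMLER (7) were 4 and 3 under those filters. Members higher in both lines (4) were 2 with 5 FPKM and 2 where bounds must not overlap. List genes higher in MDA-MB-231 (7) were 11 with the largest transcript only, 29 without a filter, 3 with 1 FPKM in both, 4 with 5 FPKM, 13 with libraries rescaled to sum to 1000000 and 2 where bounds must not overlap. List genes lower (5) were 8 without a filter, 3 with a pseudocount of 1, 2 with rescaled libraries and 0 where bounds must not overlap. Stricter filters and bounds leave fewer genes that can be counted, and rescaling also lowers the FPKM limit in effect, so that 13500 symbols pass it.

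All symbols higher and lower (1350 and 604) were 5193 and 1080 without a filter and 118 and 35 where bounds must not overlap. Those higher were 494 with 1 FPKM in both, 465 with 5 FPKM and 863 with a pseudocount of 1. Inferred fragments were up to 1.12 times as many with the full transcript length. Depth limits GREM1 (about 2 fragments) and INHBA (about 9) in untreated MDA-MB-231 cells.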

Other observations

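Of the 84 list genes, 39 were under 1 FPKM in both MDA-MB-231 libraries and belong to none of the counts above. Of these, 27 had a higher value with DAC, 5 a lower one and 7 were listed at 0 in both libraries. As a share of those with any value, 84.4% were higher with DAC, near the 81.3% of all symbols under 1 FPKM. Chordin (CHRD) was at 0.0919 and 0.391 FPKM, KCP, a chordin-like protein, at 0.0155 and 0.396 FPKM, the inhibin α chain INHA at 0.0574 and 0.366 FPKM, and TGFB3 at 0.252 and 0.658 FPKM. These 4 were chosen after their values were seen.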
